A study of Mus musculus with 9 samples.

Results

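The expression of 10 genes of the Notch pathway was read out from 9 bulk RNA-seq libraries of mouse epiblast-like cells. They were the ligands Dll1, Dll3 and Jag1, the receptors Notch1, Notch2 and Notch3, the glycosyltransferase Lfng, and the targets Hes1, Hes5 and Hey1. Genes were chosen by symbol from the table of raw counts, and these 10 were all found among its 23453 genes. Wild-type naive embryonic stem cells (ESCs) were cultured for 48 h in N2B27 medium with 1% KSR, Activin and FGF2 to give EpiLCs. EpiLCs kept for a further 24 h in N2B27 basal medium were the aEpiLCs, which stand for anterior epiblast. EpiLCs kept for 24 h with Activin and the Wnt/beta-catenin agonist CHIR99021 were the pEpiLCs, which stand for posterior epiblast. Per the methods, both of these media were also N2B27 with 1% KSR. Each state had 3 libraries with total counts of 20560564 to 23417917, at which 3 counts equal 0.130 to 0.143 CPM (counts scaled to a common library size). The cell line behind these libraries is not given in the sources used here, and nothing there says that replicates came from separate cultures, so that p-values measure the spread between these samples, which may be technical.

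Notch receptors are single-pass membrane proteins that are cut when a ligand on a neighbouring cell binds and pulls on them. The freed intracellular domain enters the nucleus, joins the DNA-binding protein RBPJ and a Mastermind coactivator, and switches on target genes, of which the Hes and Hey repressors are the best known. In the gastrulating embryo the pathway is known for the segmentation clock of the presomitic mesoderm and for holding back neuronal differentiation in the neural plate.

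Marker lists were read first, to check the labels. The epiblast list (Pou5f1, Fgf5, Dnmt3b, Otx2, Utf1) summed to 4306 to 4565 CPM in EpiLCs, 3899 to 4155 CPM in aEpiLCs and 1793 to 3022 CPM in pEpiLCs. Dnmt3b was its largest gene in EpiLCs, at 2526 to 2824 CPM, and was at 745 to 1596 CPM in pEpiLCs. Fgf5 went the other way, at 77.4 to 90.5 CPM in EpiLCs and 159 to 178 CPM in pEpiLCs. The posterior list (T, Mixl1, Eomes, Nanog, Fgf8) summed to 836 to 2343 CPM in pEpiLCs and to at most 34.8 CPM in any other library. The sum of the anterior list (Sox1, Sox2, Sox3, Pax6) was highest in aEpiLCs, at 144 to 165 CPM. Sox2 (98.5 to 105 CPM in aEpiLCs, 55.2 to 65.7 CPM in EpiLCs) and Pax6 lay above all EpiLC libraries there. Sox1 and Sox3 overlapped between aEpiLCs and EpiLCs. pEpiLC replicate 1 stood apart from the other pEpiLC libraries. Of 15797 genes, 152 and 157 differed by more than 4-fold between it and pEpiLC replicates 2 and 3, against 9 to 13 genes for every other pair of replicates. Its posterior sum was the 2343 CPM, with Nanog lower there (105 CPM, against 248 and 255 CPM in replicates 2 and 3), and the lowest epiblast and anterior sums (1793 and 17.8 CPM) were its own. It held 88.2 CPM of the 5 presomitic mesoderm genes measured (Mesp1 71.2 CPM, Tbx6 8.59, Mesp2 4.63, Msgn1 3.53) where pEpiLC replicates 2 and 3 held 0.348 and 0.920 CPM. It also held 65.1 CPM of the extraembryonic endoderm list, against 1.65 to 3.52 CPM in the other 8 libraries. That sum was carried by Gata6 (46.6 CPM), Gata4 (12.4) and Sox17 (4.68), genes that embryonic mesoderm or endoderm also expresses, while Sox7 was at 0, Amn at 0.811 and Cubn at 0.620 CPM, no higher than in pEpiLC replicate 3. Kdr was at 4.63 CPM in that library, against 0.230 and 0.304 CPM in the other pEpiLC libraries, and Cdx2 at 6.97 CPM, against 0.920 and 1.04 CPM. Because 6 of the 9 Notch genes tested were at least 2-fold higher in this library than in both others of its state, the pEpiLC fold changes are given with and without it. The part of these other genes in the results was not tested. In bulk RNA, fewer cells that express a gene and less RNA per cell cannot be told apart.

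The RefSeq table of promoters held windows for 8 of the 10 genes (all but Hes1 and Hey1), and the 250 bases before each start were searched on both strands for the core letters of the RBPJ site (TGGGAA), of the TCF/LEF site (CTTTGA) and of the T-box site (TCACAC). The RBPJ core was in the windows of Lfng and Hes5, once on each strand in both, and in 21.6% of all 32851 windows. Both windows are shown because they are the members whose upstream letters match the core of the factor that Notch itself acts through, with the matches in capitals (TTCCCA is the core read on the other strand). They come from RefSeq on GRCm38.p6, both on the plus strand, at chr5:140607091-140607340 for Lfng and chr4:154960673-154960922 for Hes5.

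Lfng: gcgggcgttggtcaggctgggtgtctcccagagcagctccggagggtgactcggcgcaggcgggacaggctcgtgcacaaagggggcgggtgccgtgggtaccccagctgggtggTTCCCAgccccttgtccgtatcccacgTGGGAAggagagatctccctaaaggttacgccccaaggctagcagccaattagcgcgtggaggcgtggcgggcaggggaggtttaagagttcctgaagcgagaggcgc
Hes5: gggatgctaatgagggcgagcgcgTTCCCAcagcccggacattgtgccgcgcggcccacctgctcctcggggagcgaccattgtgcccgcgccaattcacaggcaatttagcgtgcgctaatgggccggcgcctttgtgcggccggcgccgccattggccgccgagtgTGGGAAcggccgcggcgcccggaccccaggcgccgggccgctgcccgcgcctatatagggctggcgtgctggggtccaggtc

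In Lfng the plus-strand match began 108 bases before the start and the minus-strand match 135 bases before it, and in Hes5 they began 82 and 226 bases before it. The T-box core was in the Dll3 window alone among the members with a window, 146 bases before its start, and in 12.3% of all windows. The TCF/LEF core was in none of the members' windows, against 13.8% of all windows. The members that share a match did not share a level: Lfng was measured at 1.65 to 14.5 CPM and Hes5 at 0 to 0.506 CPM.

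Levels were compared between genes after dividing CPM by the length of the merged exons, since CPM alone grows with length. In EpiLCs, Notch3 was the highest of the 10 at 50.7 ± 6.29 CPM per kilobase (SD, n = 3), followed by Notch2 at 8.47 ± 0.187, Dll3 at 7.14 ± 0.956, Hes1 at 5.29 ± 0.755 and Dll1 at 3.89 ± 0.531 CPM per kilobase. Notch1 stood at 2.79 ± 0.118, Jag1 at 2.47 ± 0.555, Lfng at 1.55 ± 0.236, Hey1 at 1.29 ± 0.0811 and Hes5 at 0.206 ± 0.16 CPM per kilobase. Neighbours in this order whose libraries overlapped were Dll3 with Hes1, Notch1 with Jag1, and Lfng with Hey1. Notch3 carried 81.7 ± 1.89% of the summed per-kilobase level of the 3 receptors in EpiLCs, 59.1 ± 3.26% in aEpiLCs and 79.1 ± 2.69% in pEpiLCs (SD, n = 3 each). Among the 3 member ligands, Dll3 took 52.9 ± 0.620%, 58.4 ± 3.33% and 76.7 ± 2.93% of the 3-gene sum in EpiLCs, aEpiLCs and pEpiLCs. These are not shares of all ligands, since the sum leaves out Jag2. In EpiLCs Jag2 was at 54.2 to 60.3 CPM over 6965 bases of merged exon. Dll3 was at 17.2 to 22.4 CPM over 2850 bases.

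**Figure D1:**
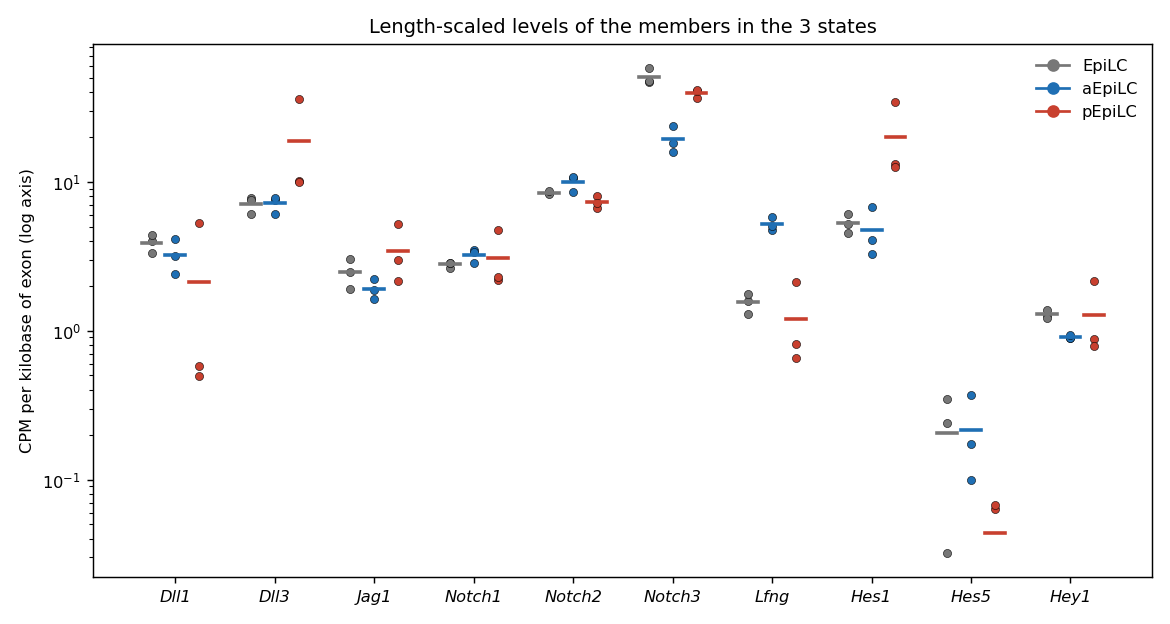
Levels of the 10 Notch genes in CPM per kilobase of merged exon on a log axis, with a point for each library and a bar for the mean of the 3 libraries of a state. Notch3 is the highest gene in every state (50.7, 19.3 and 39.5 CPM per kilobase in EpiLC, aEpiLC and pEpiLC); the pEpiLC replicate 1 value of Hes5 is 0 and lies off the axis.

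The 3 states were compared in pairs with the edgeR quasi-likelihood test, aEpiLC with EpiLC, pEpiLC with EpiLC and pEpiLC with aEpiLC, on the 6 libraries of each. Any 2 of these share the libraries of 1 state. A gene was called when its adjusted p, by Benjamini-Hochberg over all genes tested, was below 0.05 and its change at least 2-fold, and it passed the test when the adjusted p alone was below 0.05. Of the 10 members, 9 were tested in each comparison, and Hes5 was too low for the filter in all of them. Between aEpiLC and EpiLC, 1 member was called higher (Lfng) and 1 lower (Notch3), against 7.25% and 5.24% of the 15301 genes tested, while 3 passed upward and 2 downward, against 24.0% and 22.6%. Between pEpiLC and EpiLC, 2 were called higher (Dll3, Hes1) and 0 lower, against 7.71% and 8.13% of 15288 genes, and 2 passed upward and 1 downward, against 22.8% and 21.4%. DESeq2 called 1 higher and 0 lower there, and at an unadjusted p under 0.05 edgeR had 2 members higher and 2 lower. When pEpiLC replicate 1 was left out the calls were 1 higher (Hes1) and 2 lower (Dll1, Lfng), against 7.05% and 8.33%, and 2 passed upward and 5 downward, against 26.6% and 26.0%. Between pEpiLC and aEpiLC, 2 were called higher (Hes1, Notch3) and 1 lower (Lfng), against 2.55% and 4.74% of 15198 genes, and 2 passed upward and 2 downward, against 6.28% and 9.30%. The calls without pEpiLC replicate 1 were 2 higher (Hes1, Notch3) and 2 lower (Dll1, Lfng), against 2.51% and 4.90%, and 3 passed upward and 4 downward, against 8.81% and 12.8%. The median log2 fold changes of the 9 members were -0.16, 0.01 and 0.49 in the 3 comparisons, beside 0.00, 0.02 and 0.01 over all genes tested. The members are too few for these counts to be read as a property of the group, and they are described gene by gene.

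**Figure D2:**
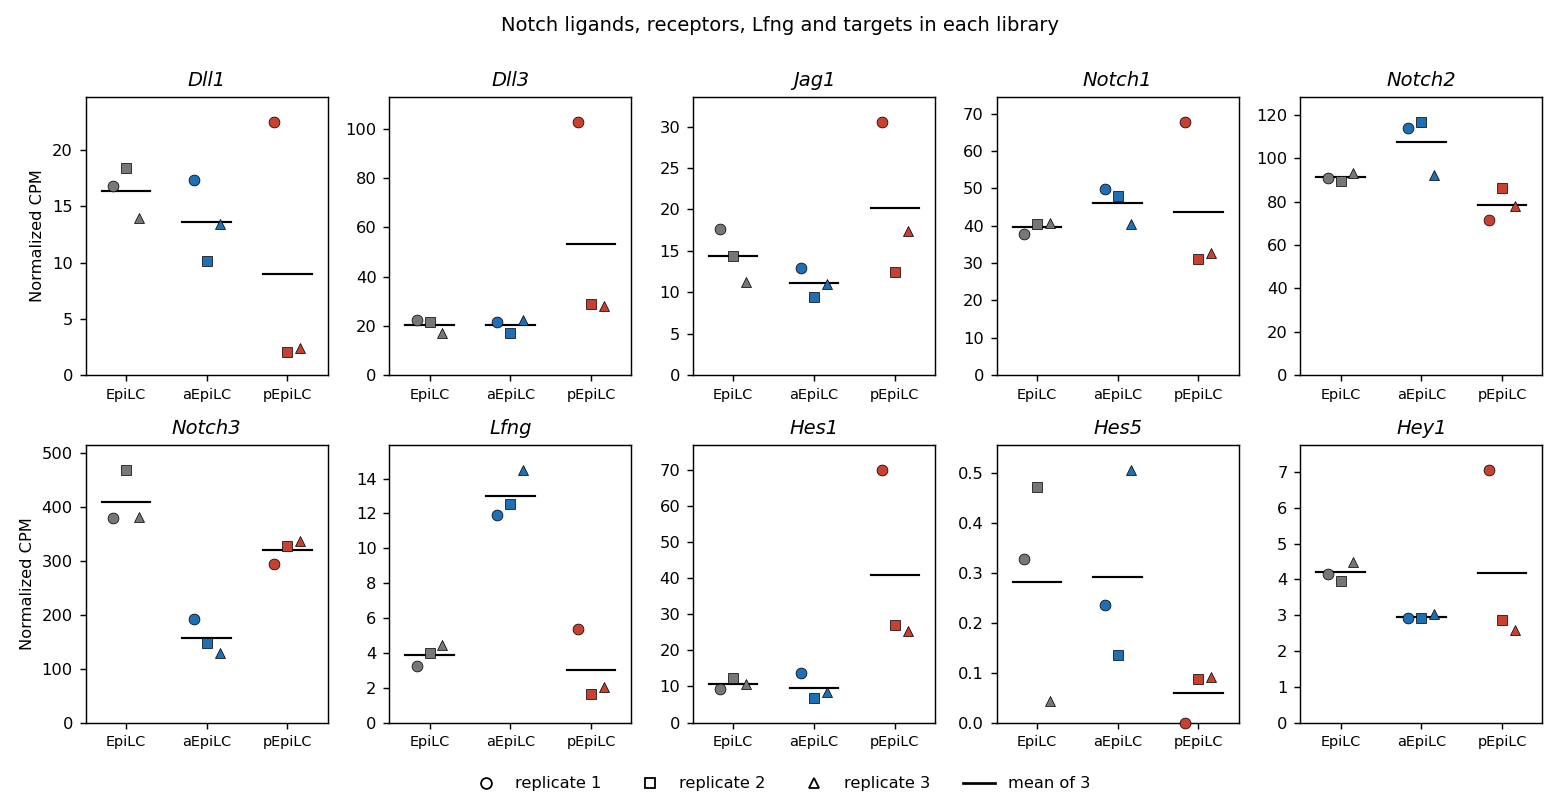
Normalized CPM of each Notch gene in each library (circles, squares and triangles for replicates 1, 2 and 3) with a bar for the mean of each state, on a linear axis from 0 for each gene. Notch3 is lowest and Lfng highest in the 3 aEpiLC libraries, and pEpiLC replicate 1 lies above replicates 2 and 3 for Dll1, Dll3, Jag1, Notch1, Lfng, Hes1 and Hey1.

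The receptor Notch3 fell in aEpiLCs. Notch3 (chromosome 17, 32120820 to 32166852, minus strand, GRCm38) was at 379, 469 and 382 CPM in EpiLC replicates 1 to 3, at 191, 148 and 129 CPM in aEpiLCs and at 294, 327 and 337 CPM in pEpiLCs. The libraries of the 3 states did not overlap, with EpiLC on top, pEpiLC between and aEpiLC lowest. The summed naive ESC list (Zfp42, Klf2, Klf4, Esrrb, Tfcp2l1, Dppa3) stood in the same order without overlap. The sum was at 30.8 to 35.2 CPM in EpiLCs, 23.1 to 26.0 CPM in pEpiLCs and 18.0 to 19.7 CPM in aEpiLCs. Zfp42, its largest gene, was the only member in that order without overlap. Zfp42 was at 18.8 to 19.3 CPM in EpiLCs, 10.8 to 11.6 CPM in pEpiLCs and up to 8.05 CPM in aEpiLCs. Esrrb was highest in pEpiLCs, and Klf4, Tfcp2l1 and Dppa3 overlapped between states. Klf2 rose in aEpiLCs (1.05 against EpiLC on the log2 scale, adjusted p = 0.00441). The part of this list in the Notch3 result was not tested. The log2 fold change of Notch3 between aEpiLC and EpiLC was -1.39 (SE 0.121, adjusted p = 1.02e-06), and it lay between -1.56 and -1.27 when any 1 library was left out. In pEpiLCs against EpiLCs it was -0.34 (SE 0.0956, adjusted p = 0.0237), below 2-fold, and -0.28 (adjusted p = 0.00698) without pEpiLC replicate 1, and the test was no longer passed without EpiLC replicate 2 (adjusted p = 0.0637). Between pEpiLC and aEpiLC it was 1.03 (SE 0.140, adjusted p = 0.00365), close to the 2-fold limit, so that the change was 0.91 without aEpiLC replicate 3, 0.99 without pEpiLC replicate 3 and just under 2-fold without aEpiLC replicate 2, with adjusted p = 0.0156, 0.0146 and 0.0305. It was 1.09 without pEpiLC replicate 1, the lowest pEpiLC library for this gene (adjusted p = 7.51e-05).

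Notch2 (chromosome 3, 98013527 to 98150361, plus strand) and Notch1 (chromosome 2, 26457903 to 26516663, minus strand) are the receptors best known from somite, blood vessel and neural development. Notch2 was at 91.1, 89.4 and 93.5 CPM in EpiLCs, at 114, 117 and 92.5 CPM in aEpiLCs and at 71.4, 86.2 and 78.1 CPM in pEpiLCs. aEpiLC replicates 1 and 2 lay above all EpiLC libraries, and the 3 pEpiLC libraries lay below every library of the other states. Notch2 passed upward between aEpiLC and EpiLC (log2 fold change 0.24, SE 0.0808, adjusted p = 0.0267) and downward between pEpiLC and aEpiLC (-0.45, SE 0.110, adjusted p = 0.0314). Its change between pEpiLC and EpiLC was -0.19 (adjusted p = 0.0721), and -0.27 without pEpiLC replicate 2 (adjusted p = 0.0297). Without pEpiLC replicate 1 the changes of Notch2 were -0.13 against EpiLC (adjusted p = 0.108) and -0.38 against aEpiLC (adjusted p = 0.0177). The rise in aEpiLCs missed the threshold without EpiLC replicate 1, 2 or 3 and without aEpiLC replicate 1 or 2 (adjusted p up to 0.114) and in a joint fit of all 9 libraries (0.0764), and the difference between pEpiLC and aEpiLC missed it without aEpiLC replicate 1 or 2 or pEpiLC replicate 3 (up to 0.125).

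Notch1 was at 37.7, 40.6 and 40.7 CPM in EpiLCs, at 49.9, 48.0 and 40.4 CPM in aEpiLCs and at 67.7, 31.0 and 32.7 CPM in pEpiLCs. The highest value was that of pEpiLC replicate 1, and the other pEpiLC libraries held the lowest values. Its log2 fold change between aEpiLC and EpiLC was 0.22 (SE 0.0842, adjusted p = 0.0469), and the adjusted p was above 0.05 when any 1 EpiLC library or aEpiLC replicate 1 or 2 was left out (up to 0.158), with DESeq2 (0.0675), with RLE size factors (0.0535), without the filter on low counts (0.0534), and in the joint fit of 9 libraries (0.529). In pEpiLCs against EpiLCs it was 0.17 (SE 0.281, adjusted p = 0.658) with all libraries and -0.29 (SE 0.0752, adjusted p = 0.00488) without pEpiLC replicate 1. Against aEpiLCs it was -0.07 (adjusted p = 0.894) with all libraries and -0.53 (SE 0.101, adjusted p = 0.00316) without that library. Exons of Notch1, Notch3, Dll1 and Hes5 overlap noncoding genes on the opposite strand, and Notch2 shares 541 exon bases with Gm42820 on its own strand; whether the counting used strand is not given in the sources used here, so reads of such partners cannot be told apart from theirs.

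**Figure D3:**
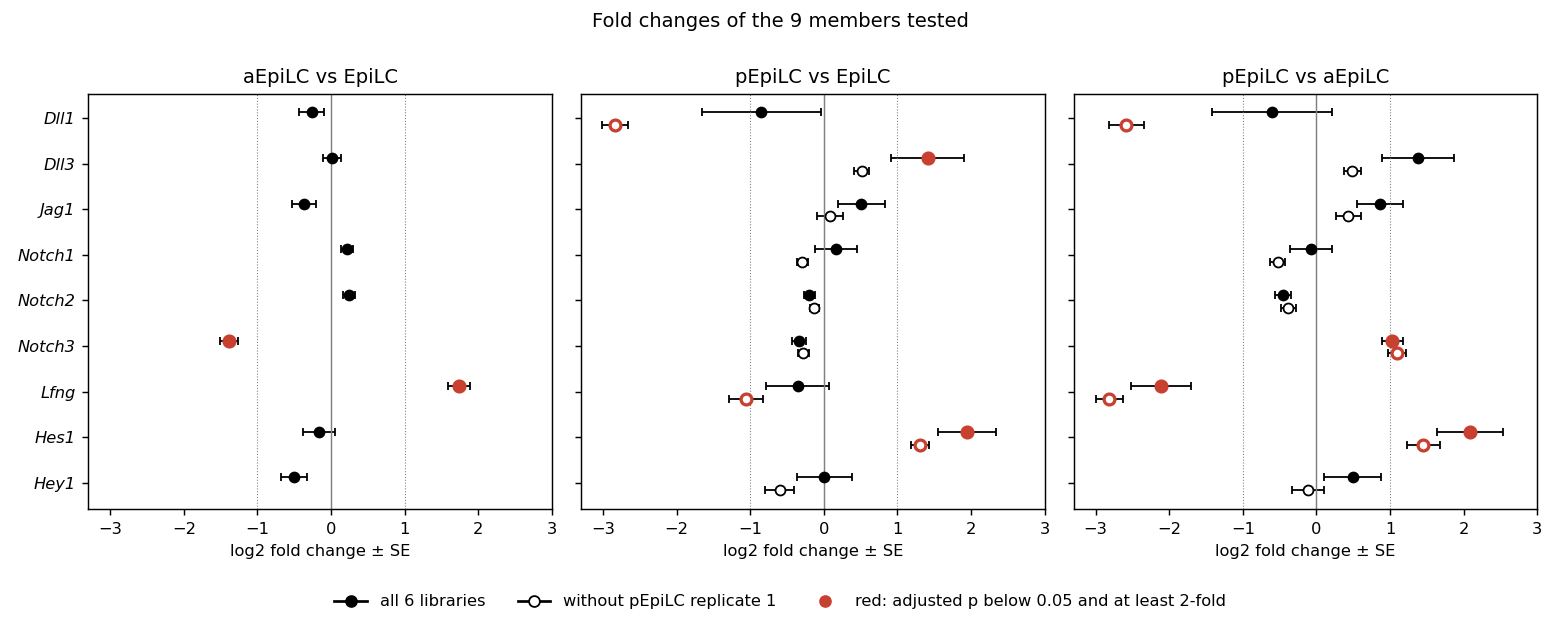
Log2 fold changes of the 9 Notch genes tested, with bars of 1 SE, in the 3 comparisons. Filled circles use all 6 libraries, open circles leave out pEpiLC replicate 1, and red marks an adjusted p below 0.05 with a change of at least 2-fold. Dll1 moves from -0.85 to -2.83 in pEpiLC against EpiLC when that library is left out, and Lfng and Notch3 in aEpiLC stand at 1.74 and -1.39.

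The ligands Dll1 and Dll3 differed most between the libraries of pEpiLCs. Dll1 (chromosome 17, 15367354 to 15376872, minus strand) encodes a ligand that activates receptors on neighbouring cells and marks early paraxial mesoderm. It was at 16.9, 18.4 and 14.0 CPM in EpiLCs and at 17.3, 10.2 and 13.4 CPM in aEpiLCs, and in pEpiLCs at 22.5 CPM in replicate 1 and 2.09 and 2.44 CPM in replicates 2 and 3. Replicate 1 was thus the highest of the 9 libraries and the other pEpiLC libraries the lowest, with a ratio of 9.94 between replicate 1 and the mean of the others. With all libraries the log2 fold change was -0.85 (SE 0.803, adjusted p = 0.421) against EpiLC and -0.60 (SE 0.817, adjusted p = 0.665) against aEpiLC. Leaving out pEpiLC replicate 1 gave -2.83 (SE 0.176, adjusted p = 8.25e-09) and -2.58 (SE 0.241, adjusted p = 1.43e-05). The change between aEpiLC and EpiLC was -0.26 (SE 0.166, adjusted p = 0.211), and -0.47 without aEpiLC replicate 1 (adjusted p = 0.0286).

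Dll3 (chromosome 7, 28293553 to 28302238, minus strand) encodes a divergent ligand that acts inside the cell and is known as an inhibitor of Notch signalling in the presomitic mesoderm. It was at 22.4, 21.4 and 17.2 CPM in EpiLCs, at 21.6, 17.2 and 22.3 CPM in aEpiLCs and at 103, 28.7 and 28.2 CPM in pEpiLCs. All 3 pEpiLC libraries lay above the other 6, and replicate 1 was 3.60 times the mean of replicates 2 and 3. It rose between pEpiLC and EpiLC by a log2 fold change of 1.41 (SE 0.491, adjusted p = 0.0492), a call that was lost without EpiLC replicate 1, 2 or 3 (adjusted p = 0.115, 0.125 and 0.149). The rise without pEpiLC replicate 1 was smaller and tighter, 0.51 (SE 0.107, adjusted p = 0.00106), below 2-fold. Between pEpiLC and aEpiLC the change was 1.38 (SE 0.490, adjusted p = 0.09997) with all libraries and 0.49 (SE 0.118, adjusted p = 0.0120) without that one, and between aEpiLC and EpiLC it was 0.01 (adjusted p = 0.967).

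Jag1 (chromosome 2, 137081456 to 137116644, minus strand), a ligand of the Serrate type, was at 17.6, 14.3 and 11.2 CPM in EpiLCs, at 12.9, 9.46 and 11 CPM in aEpiLCs and at 30.5, 12.5 and 17.4 CPM in pEpiLCs. Its states overlapped, and pEpiLC replicate 1 was again the highest library. No comparison passed the edgeR quasi-likelihood test as set out above: the log2 fold changes were -0.37 (adjusted p = 0.0776) between aEpiLC and EpiLC, 0.51 (adjusted p = 0.233) between pEpiLC and EpiLC and 0.86 (adjusted p = 0.106) between pEpiLC and aEpiLC. Leaving out 1 library gave an adjusted p under 0.05 in 3 cases, -0.53 without EpiLC replicate 3 (0.0162) and -0.48 without aEpiLC replicate 1 (0.0443) in the first comparison, and 1.12 without pEpiLC replicate 2 (0.0361) in the last. With all libraries the last also passed, below 2-fold, with DESeq2 (adjusted p = 0.0235) and the likelihood ratio test (adjusted p = 0.0493). The changes of pEpiLC without its replicate 1 were 0.08 against EpiLC (adjusted p = 0.720) and 0.44 against aEpiLC (adjusted p = 0.0921).

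Lfng rose in aEpiLCs. Lfng (chromosome 5, 140607320 to 140615545, plus strand) encodes Lunatic fringe, the enzyme that adds sugars to Notch receptors and so changes how they respond to Delta and Jagged ligands. It was at 3.27, 3.96 and 4.44 CPM in EpiLCs, at 11.9, 12.6 and 14.5 CPM in aEpiLCs and at 5.35, 1.65 and 2.02 CPM in pEpiLCs. The aEpiLC libraries lay above all others, and pEpiLC replicates 2 and 3 lay below all others. Its log2 fold change between aEpiLC and EpiLC was 1.74 (SE 0.151, adjusted p = 1.01e-06), with 1.62 to 1.84 when any 1 library was left out. Between pEpiLC and aEpiLC it was -2.11 (SE 0.404, adjusted p = 0.0141), and without aEpiLC replicate 1, 2 or 3 the change stayed near this value while the adjusted p rose to 0.0513, 0.0621 and 0.0630. It was -2.81 without pEpiLC replicate 1 (SE 0.182, adjusted p = 7.18e-07). Against EpiLCs the pEpiLC change was -0.35 (SE 0.429, adjusted p = 0.534) with all libraries and -1.06 (SE 0.234, adjusted p = 0.00166) without that one. The summed neuron list (Dcx, Tubb3, Stmn2, Elavl3, Map2, Snap25) was also highest in aEpiLCs, at 265 to 294 CPM in aEpiLCs, 117 to 129 CPM in EpiLCs and 75.2 to 115 CPM in pEpiLCs, and its part in the Lfng result was not tested. Not every member of it followed that order, since Dcx was highest in pEpiLCs (8.69 to 11.96 CPM, against 1.69 to 1.85 CPM in aEpiLCs) and Snap25 passed in no comparison.

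Of the targets, Hes1 rose in pEpiLCs. Hes1 (chromosome 16, 30064384 to 30067796, plus strand) encodes a repressor of the bHLH family that responds to Notch and to other signals and oscillates in many progenitor cells. It was at 9.29, 12.4 and 10.7 CPM in EpiLCs, at 13.9, 6.66 and 8.33 CPM in aEpiLCs and at 70.02, 26.9 and 25.5 CPM in pEpiLCs. The pEpiLC libraries lay above the other 6, with replicate 1 at 2.67 times the mean of replicates 2 and 3. The log2 fold change against EpiLC was 1.94 (SE 0.394, adjusted p = 0.00647), and 1.31 (SE 0.118, adjusted p = 4.42e-07) without pEpiLC replicate 1. Against aEpiLC it was 2.09 (SE 0.449, adjusted p = 0.0211), and 1.45 (SE 0.221, adjusted p = 0.000632) without pEpiLC replicate 1. It missed the threshold when aEpiLC replicate 2 (1.88, adjusted p = 0.0936) or aEpiLC replicate 3 (1.99, adjusted p = 0.0933) was left out. Its change between aEpiLC and EpiLC was -0.16 (adjusted p = 0.560), and -0.51 without aEpiLC replicate 1 (adjusted p = 0.0227).

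Of the other targets, Hes5 was near the limit of detection and Hey1 was lower in aEpiLCs. Hes5 (chromosome 4, 154960923 to 154962371, plus strand), a target typical of neural progenitors, had 7, 10 and 1 counts in EpiLCs, 5, 3 and 11 counts in aEpiLCs and 0, 2 and 2 counts in pEpiLCs. It was tested with all libraries only when the filter on low counts was dropped, and then passed in no comparison (adjusted p = 0.966, 0.183 and 0.212). The unadjusted p between pEpiLC and aEpiLC was 0.0472 there, on these few counts. Hey1 (chromosome 3, 8663359 to 8667256, minus strand), a repressor with a role in heart and vessel development, was at 4.15, 3.96 and 4.49 CPM in EpiLCs, at 2.91, 2.93 and 3.04 CPM in aEpiLCs and at 7.06, 2.87 and 2.58 CPM in pEpiLCs. The aEpiLC libraries lay below the EpiLC libraries without overlap. Its log2 fold change there was -0.50 (SE 0.175, adjusted p = 0.0306), and the adjusted p was 0.0523 to 0.104 without EpiLC replicate 1 or 3 or any aEpiLC replicate, 0.0641 with DESeq2 and 0.268 in the joint fit of 9 libraries. In pEpiLCs against EpiLCs Hey1 was at 0.01 (SE 0.379, adjusted p = 0.986) with all libraries and -0.60 (SE 0.197, adjusted p = 0.0197) without pEpiLC replicate 1, and between pEpiLC and aEpiLC it was 0.49 (adjusted p = 0.435) and -0.11 (adjusted p = 0.763).

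The level in pEpiLC replicate 1 was set against that in the other pEpiLC libraries gene by gene. The 6 that were at least 2-fold above both other pEpiLC libraries were Dll1, Dll3, Notch1, Lfng, Hes1 and Hey1, with ratios to the mean of replicates 2 and 3 of 2.12 to 9.94, whereas Jag1 had a ratio of 2.04 and Notch2 and Notch3 ratios of 0.869 and 0.885. Of 13657 genes with a mean of at least 1 CPM, 2.91% were as far above both other libraries and 3.53% as far below, and no other library had a share above of more than 0.293%. Among 37 other pathway genes at that level, 1 was as far above (Nrarp) and 2 as far below (Dtx1, Dtx4). These values describe 1 library and were not tested. Mesp1, Tbx6, Mesp2, Msgn1, Gata6, Gata4 and Sox17 were high in the same library, as given above.

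**Figure D4:**
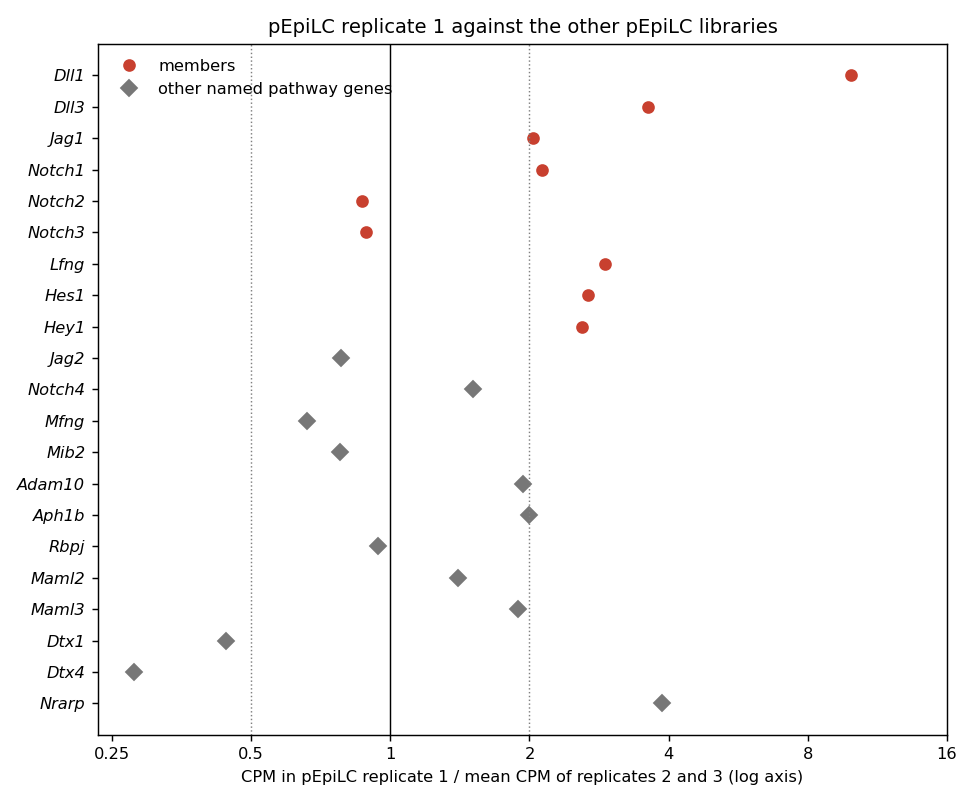
CPM in pEpiLC replicate 1 divided by the mean CPM of pEpiLC replicates 2 and 3, on a log axis, for the 9 Notch genes above the filter (circles) and for other named pathway genes (diamonds). Dll1 lies at 9.94, Nrarp and Dll3 near 4, Notch2 and Notch3 just below 1, and Dtx4 at the low end.

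The wider pathway was read from a list of 46 genes in 8 groups, of which 41, 40 and 40 were tested in the 3 comparisons. Between aEpiLC and EpiLC, 3 were called higher (Aph1b, Maml2, Maml3) and 2 lower (Hes2, Mib2), and 9 passed upward and 11 downward. Of all genes tested, 7.25% and 5.24% were called and 24.0% and 22.6% passed. Between pEpiLC and EpiLC, 4 were called higher (Adam10, Aph1b, Maml2, Maml3) and 5 lower (Dtx1, Dtx4, Hes2, Mfng, Mib2), and 11 passed upward and 12 downward, where all genes gave 7.71% and 8.13% called and 22.8% and 21.4% passed. Between pEpiLC and aEpiLC, 1 was called higher (Adam10) and 4 lower (Dll4, Dtx1, Dtx4, Mfng), and 6 passed upward and 4 downward, where all genes gave 2.55% and 4.74% called and 6.28% and 9.30% passed. Median log2 fold changes of the list were 0.04, 0.05 and -0.04. When pEpiLC replicate 1 was left out the calls were 4 higher (Aph1b, Aph1c, Maml2, Maml3) and 5 lower (Dlk1, Dll4, Dtx1, Hes2, Mfng) against EpiLC, beside 7.05% and 8.33% of all genes, and 0 higher and 2 lower (Dll4, Dtx4) against aEpiLC, beside 2.51% and 4.90%. In these fits 13 passed upward and 16 downward against EpiLC, beside 26.6% and 26.0% of all genes, and 6 passed in each direction by edgeR against aEpiLC, beside 8.81% and 12.8%. At an unadjusted p under 0.05, 8 were higher and 9 lower in the latter. Aph1c, Dlk1, Hes2, Hes6 and Mib1 fall outside the rule for named genes and are named after their values were seen.

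The nuclear complex held a pair of genes that moved alike in both later states. Maml3, a Mastermind coactivator, was at 1.77, 1.32 and 0.968 CPM in EpiLCs, at 9.91, 8.92 and 7.04 CPM in aEpiLCs and at 11.3, 7.22 and 4.69 CPM in pEpiLCs. All 6 later libraries lay above EpiLCs, with log2 fold changes of 2.67 (SE 0.224, adjusted p = 7.20e-07) in aEpiLCs and 2.53 (SE 0.374, adjusted p = 0.00180) in pEpiLCs, or 2.17 (adjusted p = 9.50e-06) without pEpiLC replicate 1. Maml2, another Mastermind coactivator, was at 0.187 to 0.472 CPM in EpiLCs, 1.43 to 2.77 CPM in aEpiLCs and 0.874 to 1.53 CPM in pEpiLCs, with changes of 2.56 (adjusted p = 0.000242) and 1.94 (adjusted p = 0.00798), the latter 1.77 (adjusted p = 0.00631) without pEpiLC replicate 1. Both comparisons used the same EpiLC libraries. Rbpj, the DNA-binding partner, stood at 137, 146 and 143 CPM in EpiLCs, 138, 144 and 126 CPM in aEpiLCs and 109, 121 and 110 CPM in pEpiLCs. Its change was -0.06 (adjusted p = 0.477) in aEpiLCs and -0.30 (SE 0.0619, adjusted p = 0.00658) in pEpiLCs against EpiLCs, or -0.27 (adjusted p = 0.00190) without pEpiLC replicate 1.

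Among genes that modify or cut the receptors, Mfng (Manic fringe, a relative of Lfng) was lower in both later states. It was at 9.66, 11.6 and 10.2 CPM in EpiLCs, at 7.70, 6.48 and 7.78 CPM in aEpiLCs and at 2.48, 3.83 and 3.68 CPM in pEpiLCs, with no overlap between states. Its log2 fold change was -0.51 (adjusted p = 0.00653) in aEpiLCs and -1.63 (SE 0.196, adjusted p = 0.000823) in pEpiLCs against EpiLCs, and -1.13 (adjusted p = 0.0121) between pEpiLC and aEpiLC. The last of these missed the threshold when aEpiLC replicate 1 or 3 was left out (adjusted p = 0.0534 and 0.0595), and the change without pEpiLC replicate 1 was -0.96, and -1.45 against EpiLC (adjusted p = 0.00193 and 3.04e-06). Adam10, the protease that makes the first cut after ligand binding, was at 16.2 to 18.3 CPM in EpiLCs, 17.8 to 20.5 CPM in aEpiLCs and 61.0, 31.0 and 32.0 CPM in pEpiLCs. It rose by 1.29 against EpiLC (SE 0.259, adjusted p = 0.00615), and by 0.90 without pEpiLC replicate 1 (adjusted p = 1.32e-06). Against aEpiLC it rose by 1.13 (adjusted p = 0.0263), by 0.74 without pEpiLC replicate 1 (adjusted p = 0.000261), and by 1.09 to 1.19 without any 1 aEpiLC library, where the adjusted p was 0.0829 to 0.104. Aph1b, a subunit of the gamma-secretase complex that makes the last cut, was at 0.420 to 1.1 CPM in EpiLCs, 1.75 to 2.35 CPM in aEpiLCs and 1.96 to 4.25 CPM in pEpiLCs, with changes of 1.41 (adjusted p = 0.00372) and 1.85 (adjusted p = 0.0118) against EpiLC, the latter 1.44 (adjusted p = 0.00391) without pEpiLC replicate 1.

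Mib2, a ubiquitin ligase that drives uptake of ligands, fell in both later states, from 29.8 to 33.4 CPM in EpiLCs to 12.9 to 16.8 CPM in aEpiLCs and 12.4 to 16.3 CPM in pEpiLCs. Its log2 fold changes were -1.10 (SE 0.105, adjusted p = 2.43e-06) and -1.08 (SE 0.122, adjusted p = 0.000633), the second of which was -0.97 without pEpiLC replicate 1. Mib1, of the same group, was higher, at 112 to 121 CPM in EpiLCs, 110 to 133 CPM in aEpiLCs and 158 to 189 CPM in pEpiLCs. It passed upward between pEpiLC and EpiLC (0.56, adjusted p = 0.00178), and at 0.47 without pEpiLC replicate 1 (adjusted p = 6.77e-06). Between aEpiLC and EpiLC it did not pass (0.09, adjusted p = 0.327). Dtx1 and Dtx4, Deltex genes whose products bind the receptor inside the cell, were lower in pEpiLCs. Dtx1 was at 56.2, 66.1 and 62.1 CPM in EpiLCs, at 38.5, 42.3 and 45.4 CPM in aEpiLCs and at 10.3, 25.5 and 21.2 CPM in pEpiLCs, and Dtx4 was at 38.1, 39.5 and 37.2, at 49.1, 62.7 and 53.1 and at 5.25, 20.4 and 17.3 CPM. For both genes pEpiLC replicate 1 was the lowest library. Against EpiLC, Dtx1 fell by 1.67 (adjusted p = 0.00311) and Dtx4 by 1.40 (adjusted p = 0.0250) on the log2 scale, and Dtx1 fell by 1.37 (adjusted p = 2.07e-08) without pEpiLC replicate 1. The Dtx4 call was lost without EpiLC replicate 1, 2 or 3 (adjusted p = 0.0721, 0.0789 and 0.0705), and without pEpiLC replicate 1 the change was -1.0 and just under 2-fold (adjusted p = 4.71e-07). Against aEpiLC the changes were -1.14 (adjusted p = 0.0335) for Dtx1 and -1.94 (adjusted p = 0.0198) for Dtx4, and both were lost without any 1 aEpiLC library (adjusted p up to 0.119 and 0.0842). Dtx4 stood at -1.54 (adjusted p = 3.31e-06) without pEpiLC replicate 1. The Dtx1 call was also lost without pEpiLC replicate 1 (-0.84) and without pEpiLC replicate 3 (adjusted p = 0.0665).

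The other ligands, receptor and Hes genes were mostly low, apart from Jag2 and Hes6. Hes6 was at 58.4 to 68.7 CPM in EpiLCs, 51.6 to 67.8 CPM in aEpiLCs and 37.3 to 49.6 CPM in pEpiLCs. It passed downward between pEpiLC and EpiLC (-0.54, SE 0.117, adjusted p = 0.00831). Without pEpiLC replicate 1 the change was -0.43 (adjusted p = 0.000434). Jag2, a Serrate-type ligand, was at 54.2 to 60.3 CPM in EpiLCs, 42.5 to 60.0 CPM in aEpiLCs and 33.5 to 47.2 CPM in pEpiLCs, and passed downward between pEpiLC and EpiLC (-0.53, SE 0.126, adjusted p = 0.0124; -0.42, adjusted p = 0.00103, without pEpiLC replicate 1). Notch4 was at 2.02 to 3.20 CPM in all 9 libraries and passed in no comparison (adjusted p = 0.743, 0.972 and 0.852, and 0.490 and 0.767 for pEpiLC without its replicate 1). Dll4, a ligand of endothelium, was at 0.396 to 0.566 CPM in EpiLCs, 0.657 to 1.29 CPM in aEpiLCs and 0.191, 0.130 and 0 CPM in pEpiLCs, and it was called lower between pEpiLC and aEpiLC (adjusted p = 0.0278, or 0.00796 without pEpiLC replicate 1), at a level where 3 counts are 0.130 to 0.143 CPM. The adjusted p was 0.0683 to 0.108 when any 1 aEpiLC library or pEpiLC replicate 2 was left out. Hes7, the clock repressor, was at 0 to 0.405 CPM and was tested in no comparison. Hes2, a low gene at 1.18 to 1.63 CPM in EpiLCs, was at 0.230 to 0.405 CPM in aEpiLCs and at 0 to 0.0870 CPM in pEpiLCs.

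Nrarp, a small ankyrin protein that is a target and inhibitor of Notch, had a pattern close to that of Dll3. It was at 4.39, 6.32 and 4.57 CPM in EpiLCs, at 6.01, 3.96 and 5.89 CPM in aEpiLCs and at 27.4, 7.0 and 7.17 CPM in pEpiLCs. The log2 fold change between pEpiLC and EpiLC was 1.47 (SE 0.537, adjusted p = 0.0584), and 0.50 (SE 0.179, adjusted p = 0.0280) without pEpiLC replicate 1. Against aEpiLC it was 1.39 (adjusted p = 0.126), and 0.43 (adjusted p = 0.139) without that library. Leaving out pEpiLC replicate 2 or 3 gave 1.78 against EpiLC in both cases (adjusted p = 0.0318 and 0.0339), and with all libraries it was also called by the likelihood ratio test (0.0179) and in the joint fit of 9 libraries (0.0301). Exons of Nrarp share 2051 bases with the antisense gene Gm38287, and exons of Dll4, Maml2, Hes7 and Neurod1 also overlap other annotated genes.

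**Figure D5:**
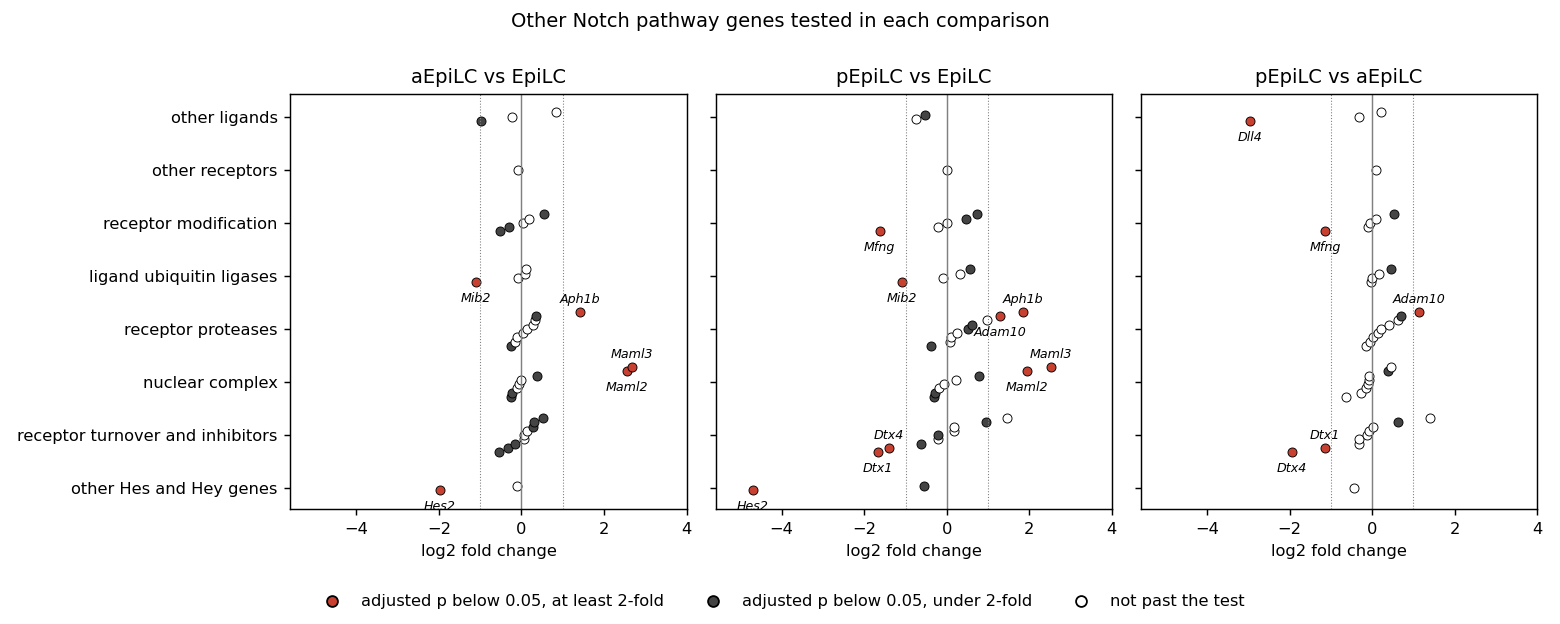
Log2 fold changes of the other Notch pathway genes tested in each comparison, by group, with all 6 libraries. Red points are called, dark points pass the test below 2-fold and open points do not pass; Maml2 and Maml3 stand at 2.56 and 2.67 in aEpiLC against EpiLC, and Dtx1 and Dtx4 at -1.67 and -1.40 in pEpiLC against EpiLC.

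Genes of the processes that Notch is known for were mostly below the filter. Of 6 proneural bHLH genes, Neurod1 alone was tested. It was at 8.59 to 11.6 CPM in EpiLCs, 15.8 to 20.3 CPM in aEpiLCs and 1.81, 4.61 and 6.81 CPM in pEpiLCs, with a log2 fold change of -2.0 (SE 0.391, adjusted p = 0.0152) between pEpiLC and aEpiLC and -1.63 (adjusted p = 5.87e-05) without pEpiLC replicate 1. The adjusted p was 0.0523 to 0.0701 when any 1 aEpiLC library was left out. Neurod1 passed between aEpiLC and EpiLC at 0.88 (adjusted p = 0.000230), and was 1.04 without EpiLC replicate 1, while between pEpiLC and EpiLC it was -1.10 (adjusted p = 0.0593), -0.73 without pEpiLC replicate 1 (adjusted p = 0.00542) and -1.55 without pEpiLC replicate 3 (adjusted p = 0.0211). With all libraries that fall was called by DESeq2 (adjusted p = 0.0128), by the likelihood ratio test (0.0271) and in the joint fit (0.0226). Mesp2, a presomitic gene that Notch regulates, was at 0.700, 1.04 and 1.19 CPM in EpiLCs, at 0.657, 0.270 and 0.460 CPM in aEpiLCs and at 4.63, 0.0435 and 0.322 CPM in pEpiLCs. It was called lower in aEpiLCs (-1.07, adjusted p = 0.0438), a call lost without EpiLC replicate 2 or 3 or aEpiLC replicate 2 or 3 (adjusted p = 0.0914 to 0.170), with DESeq2 (0.0957), without the filter on low counts (0.0606), and in the joint fit of 9 libraries (0.485). Against EpiLC the pEpiLC change was 0.78 (SE 1.13, adjusted p = 0.604), and it turned to -2.38 (adjusted p = 0.00516) without pEpiLC replicate 1.

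For the 4 members with a call, the genes of most similar profile were sought among 10731 genes with a mean of at least 5 CPM, by the root mean square difference of centred log2 values over the 9 libraries. For Dll3 they were Nrarp (0.148), Smad1 (0.151) and Grsf1 (0.172), each highest in pEpiLC replicate 1. Those given for Notch3 are Lgr4 (0.148) and Psme2 (0.195), each lowest in aEpiLCs. Dennd2c (0.201), Rbm47 (0.237) and Nrip1 (0.258) were nearest to Hes1. Lfng had the least close neighbours, Nrk (0.340), Kcnh8 (0.349) and Lama1 (0.364), all highest in aEpiLCs. The 9 points of each profile are 3 states and share pEpiLC replicate 1, so a small difference describes these libraries and says nothing of shared control.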

How the data were processed

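The 9 libraries (3 per state) were paired-end reads of 150 bases. Per the labels and methods, the authors aligned reads to GRCm38 with STAR 2.7.9a and counted them with RSEM 1.3.1, and they deposited the table of expected counts per gene symbol used here, in which 20.2% of values are not whole. The annotation and strand setting of the counting are not given in the sources used here. Expected counts were rounded. Each comparison was fitted on its 6 libraries with edgeR 4.0.16 (TMM, filterByExpr, quasi-likelihood test, Benjamini-Hochberg over all genes tested). SE is the log2 fold change divided by the square root of F. CPM used TMM factors over all 9 libraries, and levels per kilobase the merged exon length of GENCODE M21, where 97.2% of symbols matched. Scripts were tested on simulated data. Alternatives were DESeq2 1.42.0, RLE size factors, the likelihood ratio test, other count filters, a joint fit, a replicate block and each library left out.

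The members, lists and tests were chosen with earlier results of these data known. Named besides the members were listed pathway, proneural and presomitic genes with a mean of at least 1 CPM and at least 1 call with all libraries. Rbpj, Notch4, Dll4, Jag2, Hes7 and Nrarp were added, and so were the 3 most alike genes of each member called with all libraries. Of the genes most alike to Notch3, 1 is not reported here. Coordinates are GRCm38. Counting limits cover counting error only.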

Additional observations from a re-analysis of the deposited data

How the results depend on the processing

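Between aEpiLC and EpiLC the calls of Lfng and Notch3 held under every alternative run, and the counts stayed at 1 higher and 1 lower, also over the libraries left out in turn. Without the 2-fold limit the counts there were 3 higher and 2 lower, and the counts lower were 1 between pEpiLC and EpiLC and 2 between pEpiLC and aEpiLC. Between pEpiLC and EpiLC the count higher was 1 in place of 2 with RLE size factors, with DESeq2 and with at least 10 counts in every library, where Dll3 crossed the threshold (adjusted p up to 0.0596). Over the libraries left out in turn, the counts of members were 1 to 2 higher and 0 to 2 lower between pEpiLC and EpiLC, and 0 to 3 higher and 0 to 2 lower between pEpiLC and aEpiLC. The counts of 0 in the latter came without single aEpiLC libraries, with fewer samples in the fit. Dll3 was called between pEpiLC and aEpiLC by the likelihood ratio test (adjusted p = 0.0270) and in the joint fit of 9 libraries (0.0426). The change of Mesp2 between pEpiLC and EpiLC turned from 0.78, which was not called, to a called -2.38 without pEpiLC replicate 1, with up to 1.35 without another library, and it was -0.33 (adjusted p = 0.848) with a replicate block. With the longest transcript as the length, EpiLC levels per kilobase were 4.58 for Dll1, 4.18 for Notch1, 8.70 for Notch2, 7.34 for Hes1 and 1.73 for Hey1, with Notch3 still the highest at 51.2.

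Replicate numbers did not pair the samples: same-numbered deviations correlated at -0.060 to 0.021 between EpiLC and aEpiLC, 0.015 to 0.034 between EpiLC and pEpiLC and 0.062 to 0.172 between aEpiLC and pEpiLC, where each sample correlated best with its own number, a hint from the data and not from the design. With the replicate number as a block, the counts of members were 1 higher and 1 lower, 2 and 0, and 2 and 1 in the 3 comparisons. Under the block the adjusted p between aEpiLC and EpiLC was 0.0670 for Notch1 and 0.0703 for Mesp2 and that between pEpiLC and aEpiLC was 0.0564 for Dll4, all above the threshold, while Jag1 passed in both (0.0465 and 0.0395), Jag2 in the former (0.0473) and Rbpj in the latter (0.0392).

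Of single-gene values under the alternatives, 892 stayed on their side of the threshold, 52 fell short of it, 26 newly passed it and 1 was called in the opposite direction. Depth limits Hes5, Hes7, Hes2 and Dll4, which lie near 3 counts in some libraries.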
